A study of Mus musculus with 50 samples.

Results

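Figla, Nobox, Sohlh1, Sohlh2 and Lhx8 encode germ cell transcription factors that act while ovarian follicles form and begin to grow, and all 5 were followed in single mouse oocytes. They were taken by gene symbol and are 5 of the 16614 genes in the count table. The oocytes labelled knockout, 24 from 4 mice, carried a conditional deletion of Zfp36l2, whose protein product attaches to AU-rich elements of mRNAs and speeds their decay. The oocytes labelled floxed, 26 from 4 mice, carried the loxP-flanked allele and stood as controls. No source used here names the Cre driver behind the deletion. Both groups came from 5-week-old females given 10 IU of PMSG, a gonadotrophin that makes follicles grow. Cumulus-enclosed oocytes were taken 46 h later into medium with 5 µM milrinone, which keeps meiosis arrested, and the cumulus cells and zona pellucida were removed. Each fully grown, germinal vesicle stage oocyte was then sequenced as its own library.

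A primordial follicle is a resting oocyte wrapped in a single layer of somatic cells. FIGLA is a basic helix-loop-helix (bHLH) factor needed for these follicles to form, and it pairs with E proteins such as TCF3 and TCF12 on E-box sequences of zona pellucida genes. SOHLH1 and SOHLH2 are bHLH factors of spermatogonia and of oocytes in small follicles. NOBOX, a homeodomain factor, and LHX8, a LIM homeodomain factor, are needed for early oocyte survival and growth. In mice, loss of any of the 5 genes leaves ovaries that lose their oocytes early. The oocytes sequenced here had passed that stage and were fully grown.

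A mouse was taken as the unit of replication, so counts were summed over its oocytes. Knockout mice 1 to 4 gave 1, 7, 8 and 8 oocytes, and floxed mice 1 to 4 gave 5, 7, 7 and 7. Total counts ran from 4332108 to 6233840 per knockout oocyte and from 1746007 to 6120317 per floxed oocyte, where 3 oocytes were under 3000000. Levels are given as CPM, a gene's share of the total count of the oocyte or of the mouse sum on the usual scale. Genotypes were compared on the mouse sums with the quasi-likelihood test of edgeR, with p-values adjusted over all 15029 genes that passed its filter on low counts and a threshold of 0.05. Oocyte identity was checked on markers. All 10 oocyte markers were in the table, at summed levels of 4547 to 5006 CPM in knockout mice and 4326 to 5390 CPM in floxed mice. Of these 10, Ddx4, a germ cell RNA helicase, rose 1.91-fold, to 187.3 ± 21.1 CPM in knockout mice, against 95.4 ± 9.32 CPM in floxed mice (edgeR adjusted p = 0.000643), and the other 9 did not pass. Of 14 granulosa cell markers 13 were in the table, at summed levels of 162.7 to 289.0 CPM in knockout mice and 161.9 to 231.0 CPM in floxed mice. Cyp19a1, the aromatase of granulosa cells, was the highest of them, at a mean of 78.8 CPM in knockout and 82.8 CPM in floxed mice. Nr5a2, Kitl and Inha came next, at means of 44.1, 40.0 and 35.6 CPM in knockout mice. In floxed mice these 3 averaged 49.9, 21.3 and 18.8 CPM. Foxl2, a defining granulosa factor, was near 0, at 0.588 CPM in knockout and 0.574 CPM in floxed mice. Theca or stroma markers (3 of 5 in the table) summed to 1.15 to 4.99 CPM in knockout mice and 0.816 to 4.07 CPM in floxed mice. Of 7 markers of endothelium or blood, Pecam1 was the only one in the table, at 18.7 to 35.7 CPM in knockout mice and 91.1 to 174.6 CPM in floxed mice. Zfp36l2 itself was low, at 2.77, 1.61, 2.56 and 1.06 CPM in knockout mice 1 to 4 and 3.51, 1.96, 4.17 and 3.44 CPM in floxed mice 1 to 4 (edgeR adjusted p = 0.208). A count per gene does not separate the deleted part, so it does not check the genotype labels.

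The genes lie on 3 chromosomes (mm10, GENCODE annotation). Figla spans chr6:86016171-86020996 on the plus strand with 3 exons, and Nobox chr6:43303674-43309554 on the minus strand with 9 exons. Sohlh1 spans chr2:25842995-25847248 on the minus strand with 8 exons. Sohlh2 spans chr3:55182028-55209957 on the plus strand with 11 exons, and Lhx8 chr3:154306294-154330659 on the minus strand with 9 exons. No annotated gene overlaps any of them. The nearest is AI606473, on the other strand and 161 bases from Lhx8. The library kit does not mark strand, so reads that run past either end there could not be assigned by strand.

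Promoters of the bHLH genes are shown because their products and their partners bind E-boxes (CANNTG, the same on both strands). They were also picked because the genotype difference of Figla and Sohlh2 pointed one way and that of Sohlh1 the other. The Sohlh1 difference, near the floor, did not reach 0.05 (two-sided exact permutation p = 0.0571). Whether E-boxes bear on these differences was not tested. Each window, from RefSeq on GRCm38.p6 (mm10), runs from 250 bases before to 50 after the annotated start, 5′ to 3′ on the gene's strand, with E-boxes in capitals. They are chr6:86016941-86017240 (plus) for Figla, chr3:55181794-55182093 (plus) for Sohlh2 and chr2:25847199-25847498 (minus) for Sohlh1. The annotations differ most for Figla. Its RefSeq start, at base 86017191, lies inside the GENCODE gene, which starts at base 86016171, so its window is not upstream of that earlier start. The RefSeq starts of Sohlh2 (base 55182044) and Lhx8 (base 154330560) also lie inside their GENCODE genes. Those genes start at bases 55182028 and 154330659, which the windows span.
Figla: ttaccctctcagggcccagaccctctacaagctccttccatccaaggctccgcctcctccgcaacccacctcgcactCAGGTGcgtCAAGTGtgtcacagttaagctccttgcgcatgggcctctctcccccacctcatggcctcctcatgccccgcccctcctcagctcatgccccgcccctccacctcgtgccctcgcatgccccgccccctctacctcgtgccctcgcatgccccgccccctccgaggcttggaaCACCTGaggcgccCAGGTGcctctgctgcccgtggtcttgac
Sohlh2: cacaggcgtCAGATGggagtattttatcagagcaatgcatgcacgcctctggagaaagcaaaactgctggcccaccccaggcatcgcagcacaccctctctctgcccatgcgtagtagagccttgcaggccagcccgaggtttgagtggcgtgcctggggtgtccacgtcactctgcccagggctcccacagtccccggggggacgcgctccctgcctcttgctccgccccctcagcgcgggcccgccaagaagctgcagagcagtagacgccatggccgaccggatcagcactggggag
Sohlh1: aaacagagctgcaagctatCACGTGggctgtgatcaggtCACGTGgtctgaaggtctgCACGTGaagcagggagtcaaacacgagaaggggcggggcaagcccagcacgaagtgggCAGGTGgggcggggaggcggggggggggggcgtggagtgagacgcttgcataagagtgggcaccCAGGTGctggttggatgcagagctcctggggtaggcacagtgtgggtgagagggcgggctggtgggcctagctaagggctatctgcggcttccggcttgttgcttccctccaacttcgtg
The Figla window holds 4 E-boxes, a number reached by 6.49% of the 32851 RefSeq promoter windows. That of Sohlh2 holds 1, as 72.3% of windows do at least. The Sohlh1 window holds 5, reached by 2.10% of windows, and 3 of these read CACGTG. This form of CANNTG, found 3 or more times in 0.0883% of windows, was not among the planned motifs, so its share is a description only. The Nobox window holds 2 (39.6% of windows have at least as many) and the Lhx8 window none. TAATTG and TGATTG, reported as sites of NOBOX and LHX8, were searched on both strands and occur in none of the 5 windows, where 8.00% and 14.0% of all windows hold them. The shares of windows were not matched for base content. G and C made up 67.0% (Figla), 65.0% (Nobox), 63.3% (Sohlh1), 64.7% (Sohlh2) and 47.0% (Lhx8) of the windows, against a median of 52.7% over all windows. A match describes the letters only, and no binding was measured here.

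In the deposited counts, 4 of the 5 genes had a count in every oocyte of both genotypes, and Sohlh1 did not. Their levels, divided by transcript length so that genes can be compared, spanned a wide range. Nobox stood highest, at 231.7 ± 15.3 CPM per kilobase in knockout mice and 229.4 ± 19.0 CPM per kilobase in floxed mice (SD, n = 4 each), above 99.6% and 99.5% of the 16350 genes with a known length. Figla followed in the knockout, at 110.3 ± 10.7 CPM per kilobase (96.2nd percentile), against 66.2 ± 11.3 CPM per kilobase in floxed mice (89.5th percentile). Lhx8 had 54.9 ± 30.1 CPM per kilobase in knockout mice and 59.3 ± 28.2 CPM per kilobase in floxed mice. Sohlh2 had 11.9 ± 4.28 CPM per kilobase in knockout mice and 5.04 ± 0.346 CPM per kilobase in floxed mice. Sohlh1 was last, at 0.0411 ± 0.0821 CPM per kilobase in knockout mice and 0.583 ± 0.472 CPM per kilobase in floxed mice. In knockout mice Figla and Lhx8, neighbours in this order, overlapped in their ranges, at 98.5 to 119.5 CPM per kilobase for Figla and 36.3 to 99.6 CPM per kilobase for Lhx8. In floxed mice they overlapped as well, at 55.8 to 81.6 CPM per kilobase for Figla and 35.8 to 97.2 CPM per kilobase for Lhx8. No other neighbours in the order overlapped in either genotype.

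Of the 4 factor genes that passed the filter, Figla and Sohlh2 rose in knockout oocytes, and Nobox and Lhx8 did not pass the test. The background was high: 27.6% of all tested genes passed, 14.4% higher and 13.2% lower. The same 2 genes were the ones whose knockout mice all lay above the floxed mice, a separation seen for 31.0% of tested genes (16.0% above, 15.0% below). With 4 genes, this count does not set them apart from the genes at large. The values are therefore given gene by gene below.

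**Figure D1:**
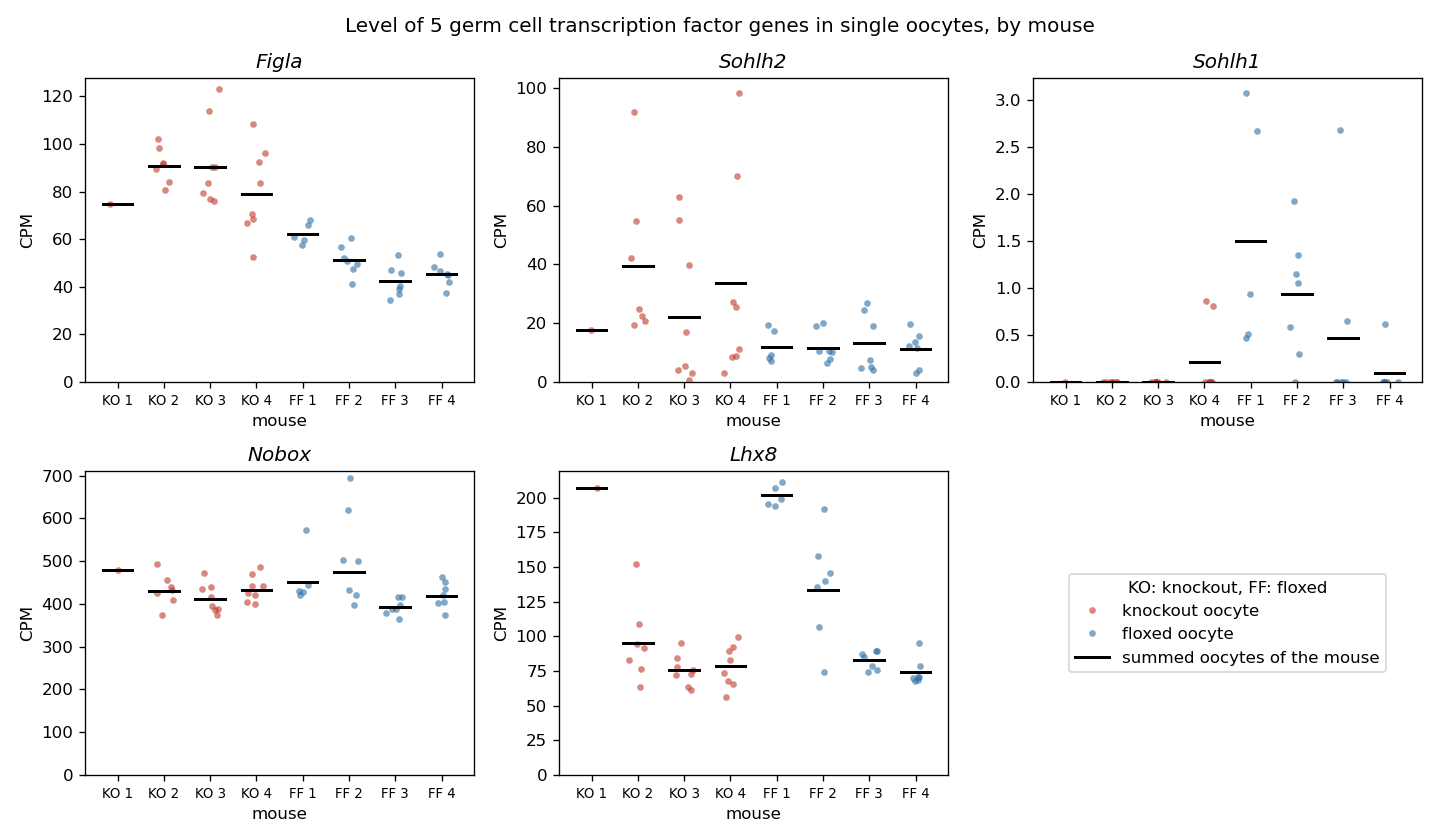
CPM of each gene in single oocytes (points), with oocytes grouped by mouse on the x axis, knockout (KO, red) left of floxed (FF, blue); black bars are the CPM of the summed oocytes of a mouse, and each panel has its own linear y axis from 0. Figla bars lie at 74.8 to 90.7 CPM in knockout and 42.4 to 61.9 CPM in floxed mice, Sohlh2 points spread widely in knockout mice, and Lhx8 is highest in mouse 1 of both genotypes.

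Figla rose 1.63-fold. Its level was 74.8, 90.7, 90.5 and 78.8 CPM in knockout mice 1 to 4, against 61.9, 51.2, 42.4 and 45.5 CPM in floxed mice 1 to 4. The lowest knockout mouse exceeded the highest floxed mouse. The means were 83.7 ± 8.14 CPM in knockout and 50.2 ± 8.61 CPM in floxed mice (SD, n = 4 each), a log2 fold change of 0.70 (SE 0.14, 95% interval 0.39 to 1.02, edgeR adjusted p = 0.00618). Single oocytes separated nearly as well: the lowest, median and highest were 52.6, 86.6 and 123.1 CPM in knockout oocytes and 34.6, 47.8 and 68.1 CPM in floxed oocytes. Thus 22 of 24 knockout oocytes lay above every floxed oocyte, and 17 of 26 floxed oocytes lay below every knockout oocyte. Figla passed the threshold in 17 of 17 alternative fits, with log2 fold changes of 0.61 to 0.81. Among the 854 tested genes within 1.25-fold of Figla in counts per base, 23.1% passed and 5.15% were higher.

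Sohlh2 rose 2.31-fold, with a wide scatter from oocyte to oocyte. Knockout mice 1 to 4 had 17.5, 39.4, 21.9 and 33.5 CPM, against 11.8, 11.6, 13.1 and 11.2 CPM in floxed mice 1 to 4. The floxed mice lay close together and all knockout mice lay above them. The means were 28.1 ± 10.1 CPM in knockout and 11.9 ± 0.819 CPM in floxed mice (SD, n = 4 each), with a log2 fold change of 1.21 (SE 0.27, 95% interval 0.60 to 1.81, edgeR adjusted p = 0.0101). Of the genes at a like count per base, 32.2% passed and 18.9% were higher. Single knockout oocytes ran from 0.802 over a median of 21.5 to 98.4 CPM (5 to 572 counts), and single floxed oocytes from 3.18 over 10.5 to 26.7 CPM (16 to 150 counts). Of 24 knockout oocytes 9 lay above every floxed oocyte and 3 lay below every floxed oocyte, so the genotypes overlapped in single cells. The highest oocyte alone gave 34.8%, 35.3% and 40.1% of the Sohlh2 counts of knockout mice 2 to 4. When each oocyte was given equal weight, by the mean of log2(CPM + 1) over a mouse's oocytes, the log2 difference was 0.78 and the call was lost (limma adjusted p = 0.0741).

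Sohlh1 was near the floor in both genotypes. It had 9 counts among 125564676 in knockout oocytes and 74 among 115065729 in floxed oocytes. The level was 0, 0, 0 and 0.212 CPM in knockout mice 1 to 4, against 1.50, 0.939, 0.469 and 0.0930 CPM in floxed mice 1 to 4. A count of 0 allows up to 0.693, 0.0877 and 0.0674 CPM (3 counts) in knockout mice 1 to 3, so for mouse 1, with a single oocyte, the limit lies within the floxed range. Knockout mouse 4 lay above floxed mouse 4, and the genotypes overlapped. The gene failed the filter on low counts, so the mice were compared by an exact permutation test. The difference in means, 0.0529 ± 0.106 CPM in knockout and 0.751 ± 0.609 CPM in floxed mice (SD, n = 4 each), was −0.70 CPM (two-sided exact permutation p = 0.0571 over 70 arrangements, smallest possible 0.0286). With no filter, edgeR gave an adjusted p of 0.0994. Without knockout mouse 4 the gene passed the filter and the threshold (edgeR adjusted p = 0.0355). All 9 knockout counts came from that mouse, so the fit set knockout mice with 0 counts against the floxed mice and adds no support. No other fit that left out 1 mouse called Sohlh1 lower. The difference in means ran from −0.45 CPM without floxed mouse 1 to −0.92 CPM without floxed mouse 4, with an exact permutation p of 0.114 or 0.0571 when any 1 mouse was left out. Without mouse 1 of both genotypes it was −0.43 CPM (exact permutation p = 0.20, smallest possible 0.10).

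Detection of Sohlh1 differed between mice, and by mouse the genotypes overlapped. Oocytes with a count were 0 of 1, 0 of 7, 0 of 8 and 2 of 8 in knockout mice 1 to 4. In floxed mice 1 to 4 they were 5 of 5, 6 of 7, 2 of 7 and 1 of 7. Detection was not tested over mice. A count was seen in 2 of 24 knockout oocytes, both from mouse 4, and in 14 of 26 floxed oocytes. Of the floxed oocytes with a count, 11 were among the 12 of mice 1 and 2, and 3 among the 14 of mice 3 and 4. Thinned to 1500000 counts per oocyte, the shares were 2 of 24 knockout oocytes (8.33%, exact 95% binomial interval 1.03% to 27.0%) and 11 of 26 floxed oocytes (42.3%, 23.4% to 63.1%). These intervals cover counting error only and treat oocytes of 1 mouse as separate draws. The highest count in any oocyte was 5 in the knockout and 14 in the floxed. No share in a cell type that lacks the gene could be measured in this series.

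Nobox, the most abundant of the factors, differed by less than the spread between mice. Its level was 479.2, 430.7, 410.8 and 433.5 CPM in knockout mice 1 to 4 and 452.3, 473.8, 392.2 and 418.6 CPM in floxed mice 1 to 4. The ranges overlapped almost fully. The means were 438.6 ± 28.9 CPM in knockout and 434.2 ± 36.1 CPM in floxed mice (SD, n = 4 each), with a log2 fold change of −0.02 (SE 0.08, 95% interval −0.21 to 0.16, edgeR adjusted p = 0.859). Single knockout oocytes ran from 373.2 over a median of 428.4 to 493.7 CPM, and single floxed oocytes from 365.1 over 421.0 to 693.6 CPM. Above every knockout oocyte lay 5 floxed oocytes.

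Lhx8 differed more between mice of a genotype than between genotypes. Knockout mice 1 to 4 had 206.8, 94.8, 75.4 and 78.8 CPM, and floxed mice 1 to 4 had 201.7, 133.3, 82.9 and 74.2 CPM. Mouse 1 was the highest in both genotypes. The means were 113.9 ± 62.5 CPM in knockout and 123.0 ± 58.6 CPM in floxed mice (SD, n = 4 each), with a log2 fold change of −0.15 (SE 0.39, 95% interval −1.03 to 0.74, edgeR adjusted p = 0.814). All 5 oocytes of floxed mouse 1 lay between 194.2 and 211.2 CPM. Floxed mouse 2 spread from 74.1 to 192.1 CPM, while the 14 oocytes of floxed mice 3 and 4 lay between 67.5 and 95.01 CPM. Without knockout mouse 1 the log2 fold change was −0.65 (edgeR adjusted p = 0.150), without floxed mouse 1 it was 0.12, and without mouse 1 of both it was −0.32 (edgeR adjusted p = 0.276). No label says what mice of 1 number share.

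**Figure D2:**
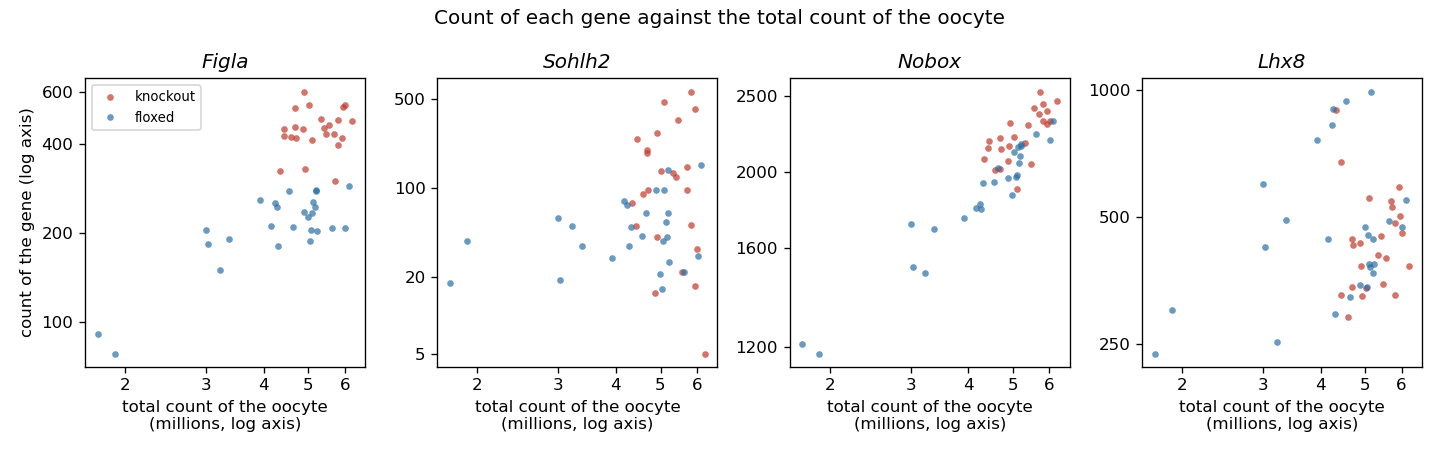
Count of each gene in an oocyte (y axis, log scale) against the total count of that oocyte (x axis, log scale), for 24 knockout oocytes (red) and 26 floxed oocytes (blue). Nobox counts rise less than in proportion to the total, with 1177 to 2324 counts in floxed oocytes, and Figla points of the genotypes form separate bands.

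The relation of counts to library depth differed between the genes. A gene's log2 count was regressed on the log2 total over the 26 floxed oocytes, where a slope of 1 means that counts follow depth. The slope was 0.80 for Figla, 0.53 for Nobox, 0.56 for Sohlh2 and 0.40 for Lhx8. Genes at the same counts per base had median slopes of 0.86, 0.48, 1.31 and 1.10 beside those 4. These slopes pool mice that differ in depth and level. Within mice, the CPM of Nobox had r = −0.89 with the library total over 49 oocytes, while Figla had −0.19, Lhx8 −0.16 and Sohlh2 −0.14. Nobox and the genes of its abundance therefore had higher CPM in shallower libraries, as the plot of counts against totals shows. The shallowest oocytes were floxed, and without the 3 under 3000000 counts the log2 fold change of Nobox was 0.02 (edgeR adjusted p = 0.829). Among the 127 tested genes at a count per base like that of Nobox, 18.9% passed and 0.787% were higher. Whether this slope compresses a genotype difference of Nobox was not tested.

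Among the genes seen in every oocyte, Sohlh2 had the largest spread between oocytes of a mouse. The SD of log2(CPM + 1), from counts thinned to 1500000, was 0.81, 1.81 and 1.44 in knockout mice 2 to 4 and 0.48, 0.46, 1.01 and 1.13 in floxed mice 1 to 4. Knockout mouse 1 had 1 oocyte and gives no SD. The mean SD was 1.35 ± 0.505 in knockout mice (n = 3) and 0.77 ± 0.347 in floxed mice (n = 4), a difference of 0.58 (two-sided exact permutation p = 0.171 over 35 arrangements). This design cannot go below p = 0.0571 in an exact permutation test. With a pseudocount of 10 the mean SD of Sohlh2 was 0.91 in knockout and 0.43 in floxed mice, and the exact permutation p was 0.0571. Among the 1076 genes within 1.25-fold of its mean level, Sohlh2 stood at the 96.9th percentile of spread in knockout and the 88.8th in floxed mice. Nobox had the smallest spread among the genes seen in every oocyte, at 0.11 in knockout and 0.17 in floxed mice (exact permutation p = 0.571). Figla, at 0.28 in knockout and 0.20 in floxed mice (exact permutation p = 0.229), and Lhx8, at 0.32 in knockout and 0.23 in floxed mice (exact permutation p = 0.343), lay between. Sohlh1, with few counts, had a mean SD of 0.16 in knockout and 0.58 in floxed mice (exact permutation p = 0.229).

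**Figure D3:**
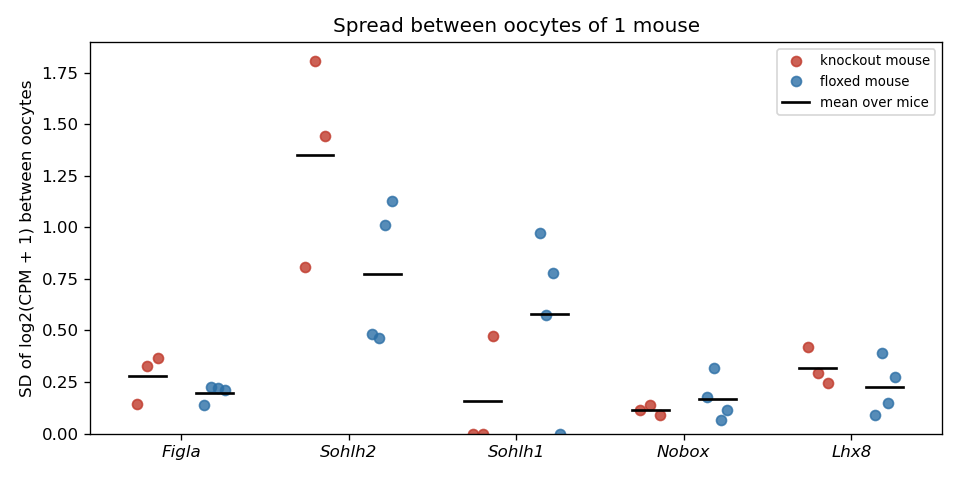
SD of log2(CPM + 1) between oocytes of 1 mouse (y axis) for each gene (x axis), with knockout mice (red, 3 mice) left of floxed mice (blue, 4 mice) and the mean over mice as a black bar. Sohlh2 lies at 0.81 to 1.81 in knockout and 0.46 to 1.13 in floxed mice, above the other genes that were seen in every oocyte.

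Within mice, the factor genes did not vary together. After centring on each mouse, Pearson's r between pairs of the 5 genes over 49 oocytes ran from −0.14 (Sohlh1 with Lhx8) to 0.26 (Figla with Sohlh2). These correlations share libraries and depth and are given as a description. Among 9695 genes averaging at least 10 CPM, those closest to Figla were Emc4 (r = 0.69), BC031181 (0.68) and Atp6v0b (0.67). The 95th percentile of all genes was 0.38. Emc4, BC031181 and Atp6v0b had r of −0.06, −0.65 and −0.57 with the library total. Their likeness to Figla was 0.77, 0.90 and 0.83 in knockout and 0.68, 0.43 and 0.54 in floxed oocytes. Closest to Sohlh2 were Mtap (0.64), Cnppd1 (0.58) and Mgrn1 (0.56), with a 95th percentile of 0.31. The likeness to Mtap was 0.79 in knockout and 0.06 in floxed oocytes, that to Mgrn1 0.71 in knockout and 0.22 in floxed oocytes, and that to Cnppd1 0.64 in knockout and 0.59 in floxed oocytes. Lhx8 was closest to Psmd5 (0.82), Ppp4c (0.81) and Pfn1 (0.79), with a 95th percentile of 0.47. Nobox was closest to Padi6, Anxa7 and Oas1e (0.94 each), with a 95th percentile of 0.61. Those 3 genes had r of −0.97, −0.88 and −0.96 with the library total and Nobox had −0.89, so depth moves with the likeness to Nobox.

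ZFP36 proteins bind AU-rich elements, so the annotated 3′ untranslated regions of the 5 transcripts were searched on the transcript strand. TATTTAT, the core of such elements, occurs in none of them. Transcripts with a 3′ untranslated region of like length hold it in 3.73% (Figla, 120 bases), 7.85% (Nobox, 281 bases), 4.68% (Sohlh1, 162 bases), 21.6% (Sohlh2, 921 bases) and 18.1% (Lhx8, 665 bases) of cases. ATTTA, the shorter pentamer inside that core, occurs 3 times in Lhx8 and in no other of the 5, where 60.2% of transcripts of like length to Lhx8 hold it. The Lhx8 sites are shown in transcript orientation with the pentamer in capitals, starting 71, 120 and 504 bases after the stop codon.
Lhx8 first site: aacttgtcATTTAttatgtat
Lhx8 second site: aattttttATTTAacactcaa
Lhx8 last site: caactgaaATTTAttttgcca
The letters alone do not show that a protein binds there, and oocytes can use other transcript ends than the annotated ones.

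bHLH factors act as dimers, and LIM homeodomain factors act in complexes. Of 17 genes for such partners and inhibitors, 15 were tested. Among them 3 rose, 1 fell and 11 did not pass, with a median log2 fold change of 0.25, against −0.01 over all tested genes. Over all tested genes 14.4% were higher and 13.2% lower, so these counts do not set the list apart. Id1, Id2 and Id3 are inhibitor of differentiation genes, whose products dimerise with E proteins and keep them from DNA. Id1 had 7.16, 6.57, 5.93 and 7.46 CPM in knockout mice 1 to 4, against 0.351, 0.776, 0.261 and 0.403 CPM in floxed mice 1 to 4. Every knockout mouse lay far above every floxed mouse (14.7-fold, log2 fold change 3.88, SE 0.43, edgeR adjusted p = 0.000459). Id3 had 85.2, 55.1, 43.7 and 45.0 CPM in knockout mice 1 to 4, against 21.8, 13.0, 7.51 and 8.43 CPM in floxed mice 1 to 4. It rose 4.42-fold (log2 fold change 2.15, SE 0.37, edgeR adjusted p = 0.0032). Id2 averaged 9.21 ± 4.37 CPM in knockout and 9.48 ± 3.37 CPM in floxed mice and did not pass (edgeR adjusted p = 0.911).

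The E protein genes Tcf3, Tcf4 and Tcf12, whose products pair with FIGLA and other bHLH factors, did not pass. Tcf12 came closest, at 39.7 ± 10.8 CPM in knockout and 25.8 ± 3.34 CPM in floxed mice (log2 fold change 0.59, edgeR adjusted p = 0.0641). LDB proteins join LIM homeodomain factors such as LHX8 into complexes, and SSBP proteins stabilise LDB. Ldb2 rose 1.90-fold, to 49.5 ± 9.07 CPM in knockout mice, against 25.4 ± 4.96 CPM in floxed mice (edgeR adjusted p = 0.00879). Ssbp3 fell to 48.5 ± 2.84 CPM in knockout mice, against 68.4 ± 7.64 CPM in floxed mice (log2 fold change −0.53, edgeR adjusted p = 0.0135). Ldb1, the common partner, averaged 107.8 ± 17.3 CPM in knockout and 88.3 ± 17.9 CPM in floxed mice and did not pass (edgeR adjusted p = 0.272). Without mouse 1 of both genotypes, Tcf4, Tcf12 and Rlim were also higher and Lmo3 lower, giving 6 higher and 2 lower. That fit called more of all genes: 3182 higher and 3549 lower of 15332 tested, against 2164 and 1984 of 15029 in all mice. Lmo3 was also lower without knockout mouse 1 alone (log2 fold change −1.05, edgeR adjusted p = 0.00402), and Tcf12 higher (0.65, edgeR adjusted p = 0.0353).

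**Figure D4:**
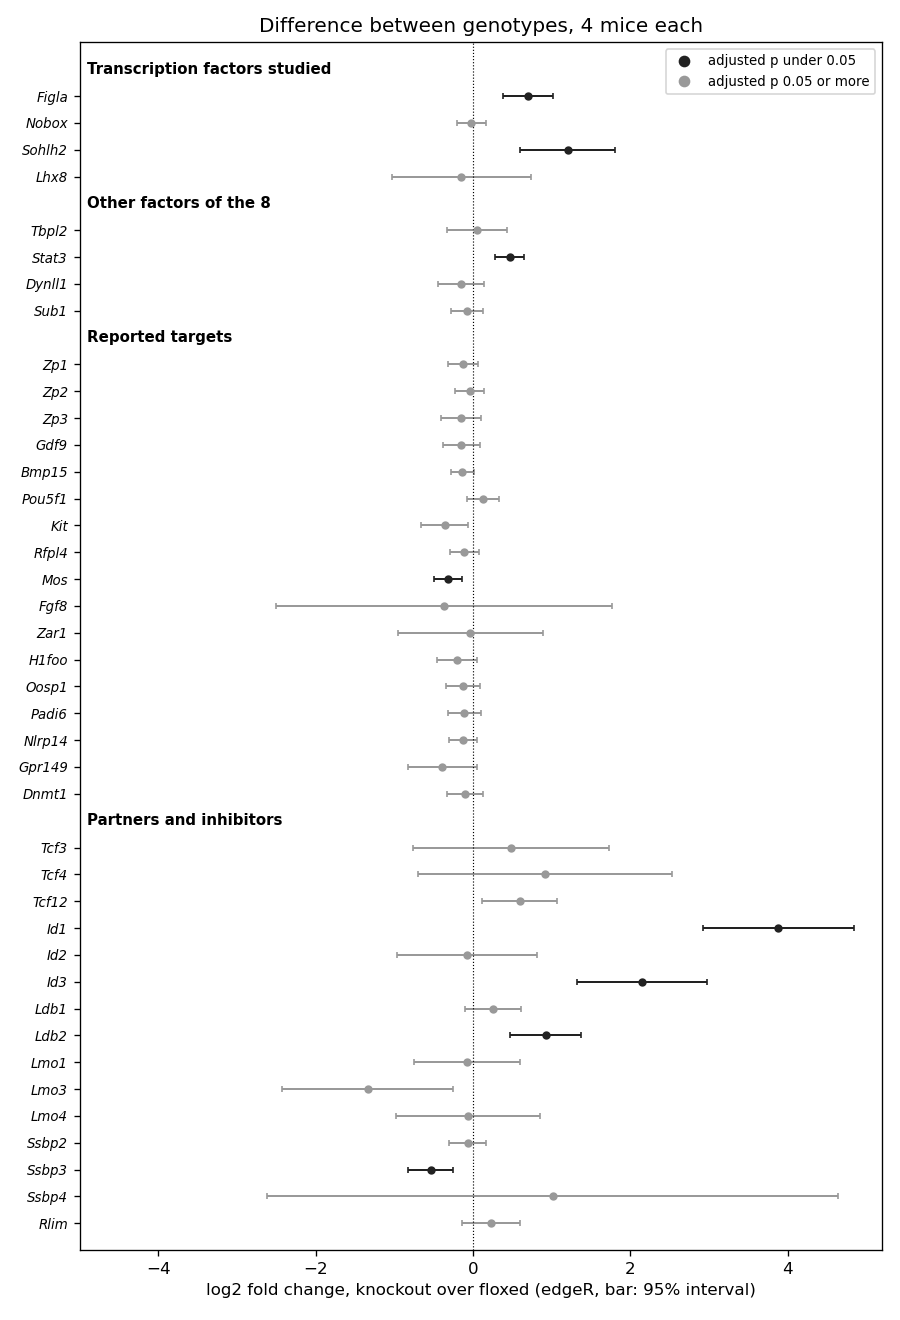
Log2 fold change of knockout over floxed (x axis) with its 95% interval for each tested gene (rows) of 4 lists, from edgeR on 4 mice per genotype; black marks an adjusted p under 0.05 and grey the rest. Figla (0.70), Sohlh2 (1.21), Stat3 (0.47), Id1 (3.88), Id3 (2.15) and Ldb2 (0.92) lie to the right, and Mos (−0.32) and Ssbp3 (−0.53) to the left.

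Of 18 genes reported in mouse ovaries to be bound by these factors or to be lower without them, 17 were in the table and tested. None rose, 1 fell and 16 did not pass, with a median log2 fold change of −0.13, where 14.4% of all tested genes were higher and 13.2% lower. Mos, the kinase that holds eggs at metaphase II, fell to 258.6 ± 17.0 CPM in knockout mice, against 314.6 ± 19.5 CPM in floxed mice (log2 fold change −0.32, edgeR adjusted p = 0.0159). Zona pellucida genes, the textbook targets of FIGLA, were close between genotypes. Zp1 averaged 504.0 ± 27.9 CPM in knockout and 535.8 ± 48.4 CPM in floxed mice (95% interval of the log2 fold change −0.31 to 0.06). Zp2 averaged 673.1 ± 34.7 CPM in knockout and 675.5 ± 64.4 CPM in floxed mice (−0.23 to 0.14). Zp3 averaged 430.7 ± 36.3 CPM in knockout and 464.7 ± 68.2 CPM in floxed mice (−0.40 to 0.11). The upper bounds of all 3 intervals lay below the lower bound of Figla, 0.39. Whether zona mRNA levels follow those of Figla mRNA in these oocytes was not tested. The CPM of these zona genes was near that of Nobox or above it. Among genes at a count per base like that of Nobox, 0.787% were higher, but the zona genes were set beside Nobox by CPM only. Padi6, another of the 17 targets, had r of −0.97 with the library total. Whether depth compresses genotype differences of the targets was not tested.

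The growth factor genes Gdf9 and Bmp15, which signal from the oocyte to granulosa cells and are reported targets of NOBOX, did not pass either. Gdf9 averaged 596.0 ± 51.0 CPM in knockout and 643.0 ± 83.6 CPM in floxed mice (log2 fold change −0.15, edgeR adjusted p = 0.330). Bmp15 averaged 739.1 ± 21.4 CPM in knockout and 790.1 ± 49.6 CPM in floxed mice (log2 fold change −0.13, edgeR adjusted p = 0.165). Pou5f1, a pluripotency factor also reported under NOBOX, averaged 98.6 ± 4.63 CPM in knockout and 88.0 ± 1.29 CPM in floxed mice (log2 fold change 0.13, edgeR adjusted p = 0.326). Rfpl4, H1foo, Oosp1, Padi6, Nlrp14 and Dnmt1 lay between log2 fold changes of −0.20 (H1foo) and −0.10 (Dnmt1), and none passed.

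Kit, the receptor for KIT ligand that activates primordial follicles, averaged 302.1 ± 25.7 CPM in knockout and 376.7 ± 63.0 CPM in floxed mice and missed the threshold (log2 fold change −0.36, edgeR adjusted p = 0.0747). It passed without knockout mouse 1 (edgeR adjusted p = 0.027), without floxed mouse 1 (0.00199) and with DESeq2 (0.0473). Gpr149, an orphan receptor of oocytes, averaged 95.3 ± 24.3 CPM in knockout and 121.5 ± 18.3 CPM in floxed mice (log2 fold change −0.39, edgeR adjusted p = 0.165) and passed without mouse 1 of both genotypes (0.0283). That fit put 3 of the 17 reported targets lower, where 3549 of all 15332 genes tested in it were lower. Fgf8 and Zar1 shared the pattern of Lhx8. Fgf8 had 129.96, 21.6, 14.4 and 20.7 CPM in knockout mice 1 to 4 and 160.2, 49.5, 10.5 and 13.6 CPM in floxed mice 1 to 4. Zar1, needed for the first divisions of the embryo, had 412.7, 177.0, 157.8 and 159.3 CPM in knockout mice 1 to 4 and 411.3, 210.7, 138.6 and 146.7 CPM in floxed mice 1 to 4. Mouse 1 was again the highest in both genotypes, and neither gene passed (edgeR adjusted p = 0.810 for Fgf8 and 0.960 for Zar1).

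Figla, Nobox, Sohlh1 and Lhx8 also belong to a set of 8 factors reported to turn mouse pluripotent stem cells into oocyte-like cells, with Tbpl2, Stat3, Dynll1 and Sub1. Of the 7 tested, 2 rose and none fell, where 14.4% of all tested genes were higher and 13.2% lower. Besides Figla this was Stat3, a signal-activated transcription factor, with 277.5, 271.0, 258.5 and 280.3 CPM in knockout mice 1 to 4, against 217.6, 198.8, 185.8 and 165.8 CPM in floxed mice 1 to 4. The groups did not overlap (log2 fold change 0.47, SE 0.08, edgeR adjusted p = 0.00401). Tbpl2, the oocyte form of the TATA-binding protein, averaged 44.8 ± 7.27 CPM in knockout and 41.9 ± 4.41 CPM in floxed mice (edgeR adjusted p = 0.846). Dynll1 averaged 131.9 ± 17.9 CPM in knockout and 142.6 ± 19.5 CPM in floxed mice (edgeR adjusted p = 0.419), and Sub1 172.1 ± 10.5 CPM in knockout and 176.3 ± 14.9 CPM in floxed mice (edgeR adjusted p = 0.587). Without knockout mouse 4, which held all 9 Sohlh1 counts of the knockout, Sohlh1 entered the fit and this set had 1 lower gene. Leaving out any other 1 mouse gave 0 lower genes in this set.

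**Figure D5:**
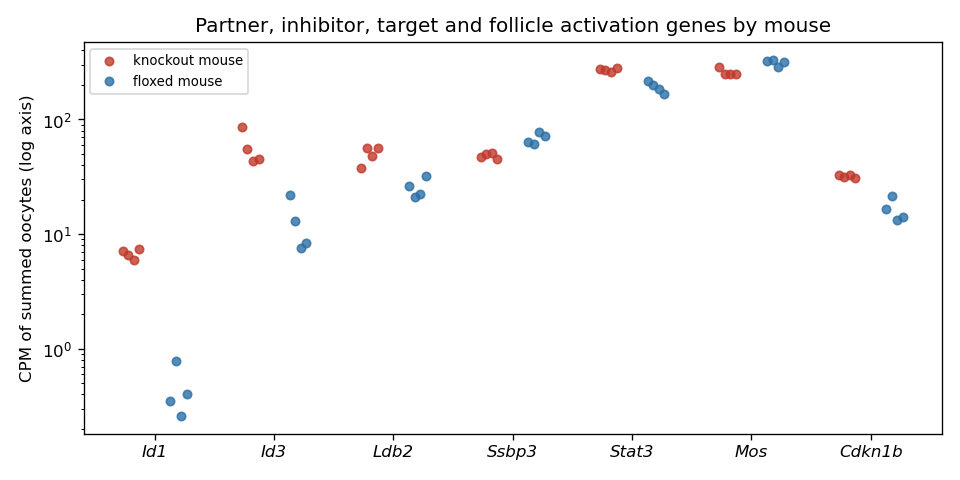
CPM of the summed oocytes of each mouse (y axis, log scale) for 7 genes of the lists (x axis), with 4 knockout mice (red) left of 4 floxed mice (blue); each point is 1 mouse. Id1 lies at 5.93 to 7.46 CPM in knockout and 0.261 to 0.776 CPM in floxed mice. None of the 7 genes overlaps between genotypes, but all were picked because they passed the test, so this is no further result. Of all tested genes, 31.0% do not overlap.

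Release of primordial follicles from rest runs through PI3K signalling, which sends the factor FOXO3 out of the nucleus. Of 13 genes of this pathway, 2 rose, 1 fell and 10 did not pass, with a median log2 fold change of 0.20. Among all tested genes 14.4% were higher and 13.2% lower, so these counts do not set the pathway apart. Cdkn1b, the cell cycle inhibitor p27 that restrains activation, had 33.0, 31.6, 32.5 and 30.6 CPM in knockout mice 1 to 4, against 16.5, 21.7, 13.3 and 14.1 CPM in floxed mice 1 to 4. It rose 1.89-fold (edgeR adjusted p = 0.00855). Pik3ca, a catalytic subunit of PI3K, fell to 92.7 ± 15.3 CPM in knockout mice, against 145.4 ± 22.0 CPM in floxed mice (log2 fold change −0.69, edgeR adjusted p = 0.0109). Rptor, the RAPTOR subunit of an mTOR complex, rose to 36.0 ± 8.67 CPM in knockout mice, against 19.0 ± 3.28 CPM in floxed mice (log2 fold change 0.89, edgeR adjusted p = 0.017). Rptor lost its call without knockout mouse 2 or 3 or floxed mouse 2 (edgeR adjusted p of 0.0621, 0.0571 and 0.0517). Without mouse 1 of both genotypes Kit and Rps6kb1, a kinase of ribosomal protein S6, were also lower, giving 3 lower. In that fit 3549 of all 15332 tested genes were lower. Foxo3 averaged 20.9 ± 16.0 CPM in knockout and 16.3 ± 10.3 CPM in floxed mice and did not pass (edgeR adjusted p = 0.711).

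Other LIM homeobox genes, relatives of Lhx8, were mostly low. Of 11, 6 were in the table and 5 were tested, of which 2 rose and 1 fell. The shares over all tested genes were 14.4% higher and 13.2% lower. Lhx2, a developmental factor, had 21.9, 16.7, 16.4 and 16.8 CPM in knockout mice 1 to 4, against 9.52, 6.45, 6.31 and 3.56 CPM in floxed mice 1 to 4. It rose 2.72-fold (edgeR adjusted p = 0.00773). Isl2 rose to 128.1 ± 46.9 CPM in knockout mice, against 33.2 ± 27.7 CPM in floxed mice (log2 fold change 1.93, edgeR adjusted p = 0.0171), and lost its call without floxed mouse 2 (edgeR adjusted p = 0.0575). Without floxed mouse 1 its log2 fold change was 2.62. Lhx5 fell to 0.480 ± 0.071 CPM in knockout mice, against 3.44 ± 3.76 CPM in floxed mice (edgeR adjusted p = 0.0201), and lost its call without knockout mouse 3 or 4 (0.0566 and 0.0514) and in limma on oocyte means (0.0539). Its log2 fold change was −2.83 with all mice and −1.80 without floxed mouse 1. Isl1 had 7.62, 0.321, 0.135 and 0.423 CPM in knockout mice 1 to 4 and 7.36, 14.1, 8.27 and 9.42 CPM in floxed mice 1 to 4. Knockout mouse 1 thus lay with the floxed mice, and Isl1 was lower without that mouse (edgeR adjusted p = 0.000231) and not called with it (edgeR adjusted p = 0.115).

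Granulosa cell markers were read beside these results. Of the 12 tested, none rose and 1 fell, with a median log2 fold change of 0.48, against −0.01 over all tested genes. The shares over all tested genes were 14.4% higher and 13.2% lower. Cyp11a1, which makes steroid precursors, averaged 0.0337 CPM in knockout and 3.88 CPM in floxed mice. Kitl averaged 40.0 CPM in knockout and 21.3 CPM in floxed mice and Inha 35.6 CPM in knockout and 18.8 CPM in floxed mice; both passed as higher without knockout mouse 1 (edgeR adjusted p = 0.00263 and 0.0414). Amhr2, a receptor for anti-Müllerian hormone, averaged 2.24 CPM in knockout and 0.854 CPM in floxed mice, without overlap, and did not pass (edgeR adjusted p = 0.151). Pecam1 moved with genotype in the other direction from Figla and Sohlh2 (edgeR adjusted p = 0.000487). The part of these markers in the results for the 5 factor genes was not tested.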

How the data were processed

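For 50 single oocytes the authors deposited 1 table of raw read counts, in whole numbers per gene. Per the submitters' processing notes, STAR and mm10 were used for alignment. No source used here names the counting tool. RNA was taken up in Trizol and amplified with a SMARTer kit without molecular identifiers, per the labels' protocols, so binomial intervals and floors cover counting error only.

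Counts of a mouse's oocytes were summed, giving 4 knockout and 4 floxed sums. Nothing in the labels ties mice to litters or batches, so p-values measure the spread between these mice. Of 150 pairs of oocytes of 1 mouse, none looked like copies (chi-square per degree of freedom 5.39 to 28.2). Genotypes were tested on these sums in edgeR 4.0.16 under R 4.3.3 (filterByExpr with a minimum count of 10, TMM, robust quasi-likelihood test, Benjamini-Hochberg over 15029 genes), and the test was tested on simulated data. CPM is relative, so a change in total mRNA cannot be seen. The SE is the log2 fold change divided by the square root of F. Sohlh1 failed the filter, and an exact permutation of its mouse CPM took the place of the count test. Alternatives were RLE size factors, no filter, DESeq2 1.42.0, limma 3.58.1, a replicate block, deeper oocytes and leaving out each mouse. Spread and detection used counts thinned to 1500000 per oocyte.

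The 5 factor genes and all lists were chosen with earlier results of these data known. Genes named are the 5, every tested reported target and reprogramming factor, the called genes of each list with the lowest p (at most 4), and the 3 genes most like each factor. Tcf4, Tcf12, Lmo3, Rlim, Ldb1, Id2, Isl1, Ddx4, Amhr2, Foxo3, Rps6kb1, Inha, Kitl, Nr5a2, Pecam1 and Cyp11a1 were named after their values were seen. Results that needed 1 further gene of the lists are not reported here. Promoter windows come from RefSeq, 5 of 5 matched by symbol. Transcripts come from GENCODE, matched for 16350 of 16614 rows.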

Additional observations from a re-analysis of the deposited data

Results flagged for a closer look

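In 13 of 105 groups of 4 to 10 values, 1 value stood apart from the rest by Dixon's test at the 95% level, where chance flags about 5% of groups. Several were mouse 1 of the knockout group, which has a single oocyte: Lhx8 at 206.8 CPM, Fgf8 at 129.96 CPM, Zar1 at 412.7 CPM, Dynll1 at 158.6 CPM, Mos at 284.2 CPM and Lhx2 at 21.9 CPM were high there. Sohlh1 in knockout mice stood apart in mouse 4, at 0.212 CPM. Knockout mice 1 to 3 had 0 counts of it, so any count in mouse 4 would have been flagged. Among floxed mice, mouse 1 stood apart for Isl2, at 74.7 CPM, and for Lhx5, at 9.01 CPM. Among oocytes of 1 floxed mouse, single cells stood apart for Nobox in mouse 1 (573.8 CPM), for Sohlh1 in mice 3 (2.68 CPM) and 4 (0.614 CPM), and for Lhx8 in mouse 4 (95.01 CPM). Only 1 oocyte of floxed mouse 4 had a Sohlh1 count, so that flag was also fixed in advance. The share of 5% does not hold for such groups made mostly of 0s.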

How the results depend on the processing

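Figla kept its direction and call in 17 of 17 alternatives (edgeR, limma or DESeq2 adjusted p 4.1e-05 to 0.0418), and Sohlh2 in 16 of 17, the exception being limma on oocyte means (0.78, adjusted p = 0.0741). Sohlh2 ranged from 0.95 to 1.33 when each mouse was left out in turn. Nobox and Lhx8 passed in none of 17. With oocytes of 3000000 counts or more, the log2 fold change of Nobox turned to 0.0243 and that of Zar1 to 0.0338, and thinning to 3000000 turned the difference in spread of Nobox to 0.0152. When each mouse was left out in turn, log2 fold changes ran from −0.118 to 0.0220 for Nobox, −0.655 to 0.117 for Lhx8, −0.119 to 0.00687 for Zp2, −1.72 to 0.77 for Fgf8, −0.547 to 0.343 for Zar1 and −0.0820 to 0.0971 for Tbpl2. Without mouse 1 of both genotypes Tbpl2 was −0.154, and −0.170 when oocyte 1 of floxed mouse 2 was left out too. None of these changes of sign passed the threshold. The cause was not tested.

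Counts of all genes moved more: without 1 mouse 1359 to 2538 genes were higher and 1219 to 2822 lower, against 2164 and 1984 in all mice. Without mouse 1 of both genotypes 3549 were lower, and 3466 without that oocyte as well, which was chosen after seeing its Lhx8 level. The mouse numbers were not taken as pairs, since no label gives them a meaning and not every same-number correlation was over 0.1 (0.32, −0.004, 0.25 and 0.18). Knockout mice 1, 3 and 4 and floxed mice 1 and 3 correlated best with their own number, a hint from the data and not from the design. With a replicate block 2876 genes were higher and 2947 lower, Figla and Sohlh2 stayed called (0.71 and 1.14), and Lhx8 was −0.17 (edgeR adjusted p = 0.257). Under the block Gpr149 was also called lower (−0.41, edgeR adjusted p = 0.0147), giving 2 lower reported targets.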
